A study of Mus musculus with 12 samples.

Results

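The insulin and IGF signalling genes examined here were 9 of the 24062 genes counted in mouse oocytes: the receptors Insr and Igf1r, the receptor substrates Irs1 and Irs2, the lipid kinase subunit Pik3ca, the protein kinases Akt1 and Akt2, and the transcription factors Foxo1 and Foxo3. They were chosen by name, for their place in 1 pathway, and all 9 had a line in the count table. For 9 weeks female mice ate either a control diet (CD) or a diet rich in fat (HFD), and they were then mated with vasectomized males, all on CD during mating. Oocytes were taken at day 0.5 post coitum, and RNA-seq libraries were made from pools of 4 oocytes, 6 pools per diet, with 6 females per diet. The labels do not say which female gave which pool, so the tests measure the spread between pools, part of which may be technical. They give no strain, age or genotype, and 1 product code is used for both feeds, modified in the case of HFD, which leaves the composition of the control feed uncertain.

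Insulin and insulin-like growth factors bind receptor tyrosine kinases, which phosphorylate adaptor proteins of the IRS family. The adaptors recruit phosphoinositide 3-kinase (PI3K), whose lipid product brings AKT kinases to the membrane, and AKT phosphorylates FOXO transcription factors so that they leave the nucleus. In the mouse ovary this route is best known for holding or releasing dormant follicles, where Foxo3 in the oocyte acts as a brake on growth. An ovulated oocyte no longer transcribes, so its mRNA is a store laid down during growth and drawn down during maturation.

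The depth was 8409491 to 13793598 gene counts in HFD libraries and 8556396 to 10477316 in CD libraries. HFD replicate 3 stood apart: its median rank correlation with the other HFD libraries was 0.778, against 0.841 to 0.931 for the other 11 libraries with those of their own diet, and it had 14755 genes detected against 12229 to 13052. Reads assigned to no single gene were 66.5% to 72.9% of tallied reads in HFD and 62.3% to 66.6% in CD. In 4 of the 6 HFD libraries and in 0 CD libraries every count was even. Of 12 oocyte markers 11 were counted in all 12 libraries. The summed level of the 12 was 12115 to 29145 CPM (median 23401) in HFD and 9790 to 18759 CPM (median 14579) in CD. This sum was higher in HFD (exact permutation test of the means, unadjusted p = 0.0173), and 47.2% of it came from Dppa3. Of 18 cumulus and granulosa markers, 3 were counted in every library and Amh, Ptx3 and Amhr2 in none, and their sum ran from 28.9 to 61.8 CPM in HFD and from 46.3 to 94.1 CPM in CD, with 62.7% of it from Cyp19a1. The same permutation test gave an unadjusted p of 0.147 for this sum. It gave 0.522 for oviduct epithelium, 0.277 for stroma and endothelium and 0.727 for blood and immune markers. CD replicate 3 had the highest oviduct epithelium sum, 216 CPM against a CD median of 66.9, with 88.1% of that list from Cdh1. It also had the highest stroma and endothelium sum, 150 CPM against a CD median of 28.3, with 88.0% from Pecam1.

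The stored pathway mRNA was lopsided, with much FOXO1 and AKT1 message, little receptor message and almost no IRS1 or IRS2 message. Levels between genes were compared as CPM (counts per 1000000 of the TMM-scaled total of their library) per kb of merged exon length, over all 12 libraries. Foxo1 stood highest at 28.5 ± 13.6 CPM per kb (SD, n = 12), above 84.8% of the 9486 tested genes with a length. Akt1 followed at 8.13 ± 3.02 and Pik3ca at 2.42 ± 1.06 CPM per kb. Below them lay Akt2 at 0.99 ± 0.36 and Foxo3 at 0.82 ± 0.36 CPM per kb. The receptors stood at 0.104 ± 0.073 CPM per kb for Igf1r and 0.073 ± 0.068 for Insr, with 0.295% and 0.0949% of tested genes below them. The tested genes had passed a filter on low counts, which does not take length into account. Igf1r and Insr are long, with 16791 and 13746 nt of merged exons, so these shares do not give their rank among all genes. Foxo1 exceeded Akt1, and Akt1 exceeded Pik3ca, in 12 of 12 libraries, while Pik3ca exceeded Akt2 in 11, Akt2 exceeded Foxo3 in 10 and Igf1r exceeded Insr in 9. The ranges over libraries overlapped between all neighbours in this order except Foxo3 and Igf1r. The mean levels of Akt2 and Foxo3, and likewise of Igf1r and Insr, lay within 1 SD of each other, and differences between genes were not tested.

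**Figure D1:**
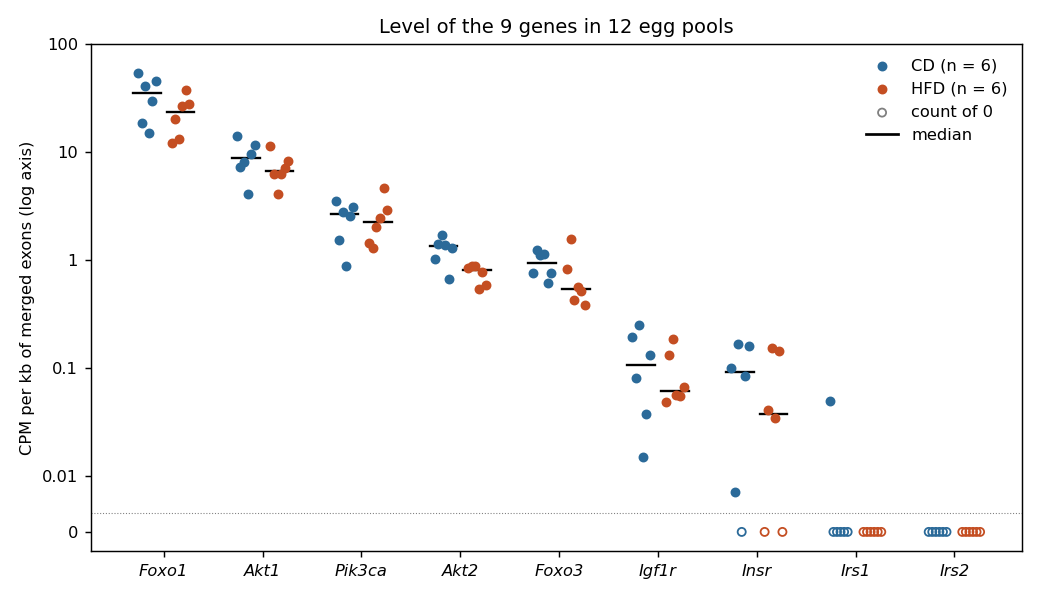
Level of each gene in each library, as CPM per kb of merged exons on a log axis, with CD in blue and HFD in orange, open circles for a count of 0 and a bar at the median of each diet where it is above 0. Foxo1 lies highest, Irs2 has no count in any library and Irs1 has counts in 1 CD library.

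The receptors were close to the limit of detection. Insr, the insulin receptor (chromosome 8, 3122061 to 3279617 on mm10, minus strand), had between 0 and 24 reads per library and was counted in 4 of 6 HFD and 5 of 6 CD libraries. Its CPM ran from 0 to 2.09 with a median of 0.513 in HFD, and from 0 to 2.27 with a median of 1.25 in CD. Igf1r, the IGF1 receptor (chromosome 7, 67952827 to 68233668, plus strand), was counted in all 12 libraries, with 2 to 44 reads. Its CPM ran from 0.811 to 3.09 with a median of 1.02 in HFD, and from 0.249 to 4.16 with a median of 1.77 in CD. High and low libraries occurred in both diets for both receptors: HFD replicate 3 and CD replicate 3 held the most Igf1r and Insr of their diets. Insr varied more between pools than 98.3% of the tested genes, with a biological coefficient of variation of 120% against a median of 56.8%, and Igf1r had 72.5%.

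The IRS adaptors, which couple the receptors to PI3K, were at or near 0 reads. Irs2 (chromosome 8, 10984681 to 11008458) had 0 reads in all 12 libraries. Irs1 (chromosome 1, 82233101 to 82291416) had 5 reads in CD replicate 1, or 0.452 CPM, and 0 in the other 11 libraries. A count of 0 allows up to 0.217 to 0.357 CPM of total gene counts per library, counting error only, or 0.286 to 0.606 CPM if the libraries with only even counts are halved, so lower levels were not detectable at this depth. Both genes are annotated with an overlapping gene on the other strand, over 2822 nt of exon for Irs1 and 162 nt for Irs2, and the kit does not mark strand, so reads of the 2 strands cannot be told apart there. Irs4, another adaptor of this family, had 46 reads in 6 libraries and also failed the filter on low counts.

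The RefSeq promoter windows (GRCm38.p6, 250 bases before to 50 after the start) of the members are shown where they bore on the genes at 0 or on FOXO itself. Windows were found for 8 of the 9 genes, 12 windows in all. The E-box CACGTG, its own reverse complement, occurred in 2 of the 12, those of Irs1 and Irs2, and in 7.15% of all 32851 windows. The FOXO core GTAAACA, on either strand, occurred in 1, a window of Akt1, and in 3.65% of all. The shorter TAAACA, which GTAAACA contains, was in windows of Akt1 and Akt2 (13.4% of all), the CRE TGACGTCA in no window of a member (1.79% of all), and the GC box GGGCGG in 8 of the 12 windows, 1 for each of the 8 genes (35.7% of all). The 3 sites are printed on the strand of the gene with 10 bases on each side and the motif in capitals. They lie on the minus strand at chr1:82291539-82291564, chr8:11008958-11008983 and chr12:112675029-112675055, and start at -115, -44 and -161 from the start that RefSeq gives for each window, which for Irs1 and Irs2 is not the GENCODE gene end printed above. In the Akt1 window the core is read from the opposite strand.
Irs1 E-box: gaggctccgtCACGTGttttgctcct
Irs2 E-box: aacgcagagtCACGTGttgttttgct
Akt1 FOXO core: tctaccctctTGTTTACactcctggtg
These matches describe letters only, and no binding was measured.

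The kinases were carried mainly as Akt1 and Pik3ca message. Pik3ca encodes the catalytic p110-alpha subunit of PI3K (chromosome 3, 32397671 to 32468486). Its CPM ran from 11.8 to 41.6 with a median of 20.2 in HFD, and from 7.97 to 32.1 with a median of 24.2 in CD. Its highest library was HFD replicate 5 and its lowest CD replicate 4. Akt1, the broadly expressed AKT kinase (chromosome 12, 112653821 to 112674884), ran from 16.8 to 46.5 CPM with a median of 27.3 in HFD, and from 16.6 to 57.2 with a median of 36.1 in CD. The 2 diets shared the same lower end for Akt1, and 5 of 6 HFD libraries lay below the CD mean. Akt2, the isoform best known for insulin-driven glucose uptake (chromosome 7, 27591552 to 27640826), ran from 3.78 to 6.26 CPM with a median of 5.76 in HFD, and from 4.72 to 12.004 with a median of 9.49 in CD. All 6 HFD libraries lay below the CD median for Akt2, but CD replicate 5, at 4.72 CPM, lay inside the HFD range. Per kb, Akt1 exceeded Akt2 in 12 of 12 libraries, by 2.93 to 14.5-fold with a median of 9.08.

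Most FOXO message in these oocytes was Foxo1. Foxo1, which in other tissues carries much of the insulin response of metabolic genes (chromosome 3, 52268336 to 52353221), had 1050 to 5192 reads per library. Its CPM ran from 104 to 324 with a median of 204 in HFD, and from 131 to 469 with a median of 308 in CD. CD replicates 1, 6 and 3 were the 3 highest libraries, and HFD replicates 1 and 3 the 2 lowest. Foxo3, the FOXO factor tied to follicle dormancy (chromosome 10, 42181841 to 42276755), had 26 to 128 reads. Its CPM ran from 2.87 to 11.8 with a median of 4.07 in HFD, and from 4.61 to 9.42 with a median of 7.06 in CD, and its highest library of all, HFD replicate 2, went against the order of the medians. Per kb, Foxo1 exceeded Foxo3 by 13.0 to 74.1-fold, with a median of 42.4 over the 12 libraries, which was 39.7 in HFD and 43.0 in CD. Granulosa cells also express Foxo1. The sum of the 18 cumulus and granulosa markers, 28.9 to 94.1 CPM, was highest in CD replicate 1, as Foxo1 was. Their part in the Foxo1 level was not tested. An antisense gene overlaps 674 nt of the Foxo1 exons, with the same limit on strand.

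No member passed the test for a diet difference, and 6 of the 7 that passed the filter on low counts had a fold change below 0 in HFD. The filter removed Irs1 and Irs2. The test was edgeR's quasi-likelihood test over 9935 genes, with Benjamini-Hochberg adjustment and a threshold of 0.05, and it called 0 genes, or 0.0% of those tested. Akt2 had the largest difference, with 5.32 ± 1.07 CPM in HFD and 8.82 ± 2.51 in CD (SD, n = 6 each). Its log2 fold change was -0.73 ± 0.34 (SE; 95% interval -1.45 to -0.0034; edgeR, adjusted p = 0.222, or 0.120 to 0.618 over the alternatives). It was the only member with an unadjusted p under 0.05, as had 2215 genes, or 22.3% of all tested (8.89% lower and 13.4% higher in HFD). A count of 1 in 7 members is too small to be set apart from these shares. DESeq2 and limma-voom also called 0 members, where they called 7.42% and 0.352% of the genes they tested. Foxo1 stood at 199 ± 84.1 CPM in HFD and 295 ± 134 in CD, with a fold change of -0.57 on the log2 scale (95% interval -1.35 to 0.21; adjusted p = 0.375 by edgeR). Akt1 had -0.33 (interval -1.06 to 0.39; adjusted p = 0.599) and Foxo3 -0.39 (interval -1.28 to 0.50; adjusted p = 0.615) by edgeR. For Pik3ca it was 0.03 (interval -0.83 to 0.89; edgeR, adjusted p = 0.974). The intervals of Igf1r, -1.76 to 0.99, and Insr, -2.70 to 1.73, were too wide to exclude a doubling or a halving in either direction for Insr, and a halving for Igf1r. A halving also lay inside the intervals of Akt2, Foxo1, Foxo3 and Akt1, and outside that of Pik3ca. In bulk libraries, fewer transcript-bearing oocytes in a pool and less RNA per oocyte cannot be told apart.

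**Figure D2:**
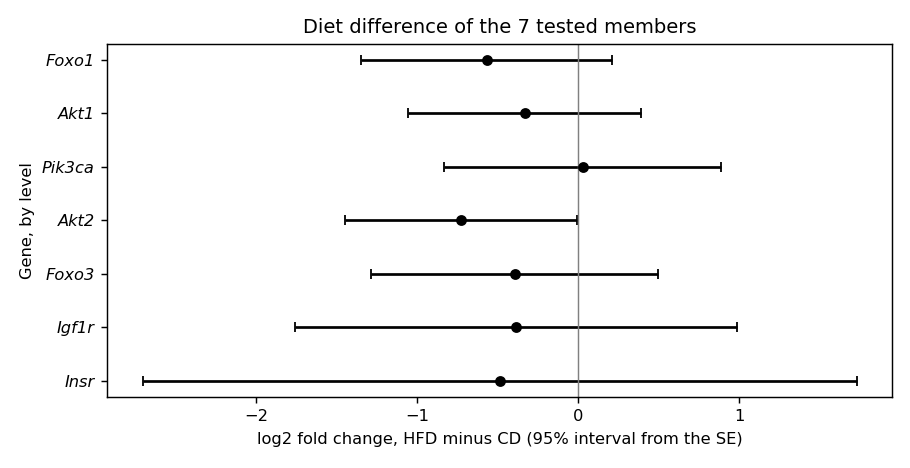
Log2 fold change of the 7 tested genes, HFD minus CD, with 95% intervals from edgeR's standard errors, ordered by level. The interval of Akt2 ends just below 0 and the intervals of the others cross 0.

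The diets overlapped for each of the 7 tested members. Diet ranges failed to overlap in only 2.45% of all tested genes, so this overlap is not particular to the members. The median log2 fold change of the 7 was -0.39, against 0.04 over all 9935 tested genes, of which 48.2% were below 0. Fold changes moved with transcript length in these libraries. Insr, Igf1r, Pik3ca and Foxo1 fell in the longest of 5 length classes by merged exons, where the median log2 fold change was -0.25 and 64.7% of genes were below 0. Akt2 and Foxo3 fell in the class below it, with a median of -0.16, and Akt1 in the middle class, with -0.09. After removal of the length trend of each library, the log2 fold change was -0.56 for Akt2, -0.35 for Foxo1, -0.28 for Akt1, -0.23 for Foxo3, -0.20 for Insr, -0.03 for Igf1r and 0.24 for Pik3ca, and none passed (edgeR, adjusted p = 0.401 for Akt2). Leaving out HFD replicate 2 moved Foxo3 to -0.79, and leaving out HFD replicate 3 moved Insr to -0.99 and Igf1r to -0.72, while Igf1r was -0.072 without CD replicate 3. Akt1 was -0.19 without CD replicate 1 and -0.51 without HFD replicate 1. None of these passed.

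The balance between paralogues also did not separate the diets. Such a ratio does not depend on how libraries are scaled, except where counts are low enough for the added 0.5 to matter. The log2 ratio of Akt2 to Akt1 reads was -2.42 ± 0.60 in HFD and -2.02 ± 0.92 in CD (SD, n = 6 each), a difference of -0.39 (two-sided exact permutation test, p = 0.400; 0.766 adjusted over 3 ratios). The ratio of Foxo3 to Foxo1 was -5.27 ± 1.10 in HFD against -5.28 ± 1.03 in CD, a difference of 0.011 (exact permutation test, p = 0.968). The ratio of Igf1r to Insr was 1.86 ± 2.18 and 1.14 ± 1.496 (exact permutation test, p = 0.511; adjusted, 0.766). Insr had 0 reads in some libraries, so the ratio of Igf1r to Insr did depend on the added amount. Its difference of 0.71 was 0.56 with counts + 1, 0.23 with counts + 5 and 0.37 with the all-even libraries halved. With single libraries left out the difference ran from -0.60 (without CD replicate 5) to -0.14 (without CD replicate 4) for Akt2 over Akt1, and from 0.20 (without HFD replicate 6) to 1.29 (without HFD replicate 5) for Igf1r over Insr. Each ratio spread over several-fold within a diet, and the Irs pair gave no ratio because Irs2 had no reads.

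Pools of 1 diet differed by up to 3.12-fold (HFD) and 3.59-fold (CD) in Foxo1 CPM, and Pik3ca differed along with it. Among the CD pools, replicates 1, 3 and 6 were the highest for Foxo1, and replicates 2 and 4 the lowest, at 162 and 131 CPM. Pik3ca had 32.1, 25.4 and 28.2 CPM in the first 3 and 13.9 and 7.97 CPM in the latter 2. Over all 12 libraries the log2 CPM of Foxo1 and Pik3ca correlated with Pearson's r = 0.807 (permutation test, p = 0.00166; 0.0349 adjusted over 21 pairs of members) and Spearman's rho = 0.839 (permutation test, p = 0.00110; adjusted, 0.0231). The r was 0.842 without the 2 libraries farthest from the median of Pik3ca, 0.793 within HFD and 0.963 within CD. The relation was not limited to the pair. Of the tested genes, 3.91% followed Foxo1 more closely than Pik3ca did, and 3.97% followed Pik3ca more closely than Foxo1 did. The other 20 pairs did not pass, with r from -0.58 to 0.67 (permutation test, smallest adjusted p = 0.151). Akt2 and Foxo3, the pair at 0.67, were both low in HFD replicates 4, 5 and 6. Akt1 followed Foxo1 within CD, with r = 0.890, but not within HFD, with r = -0.00071, a difference that was not tested.

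**Figure D3:**
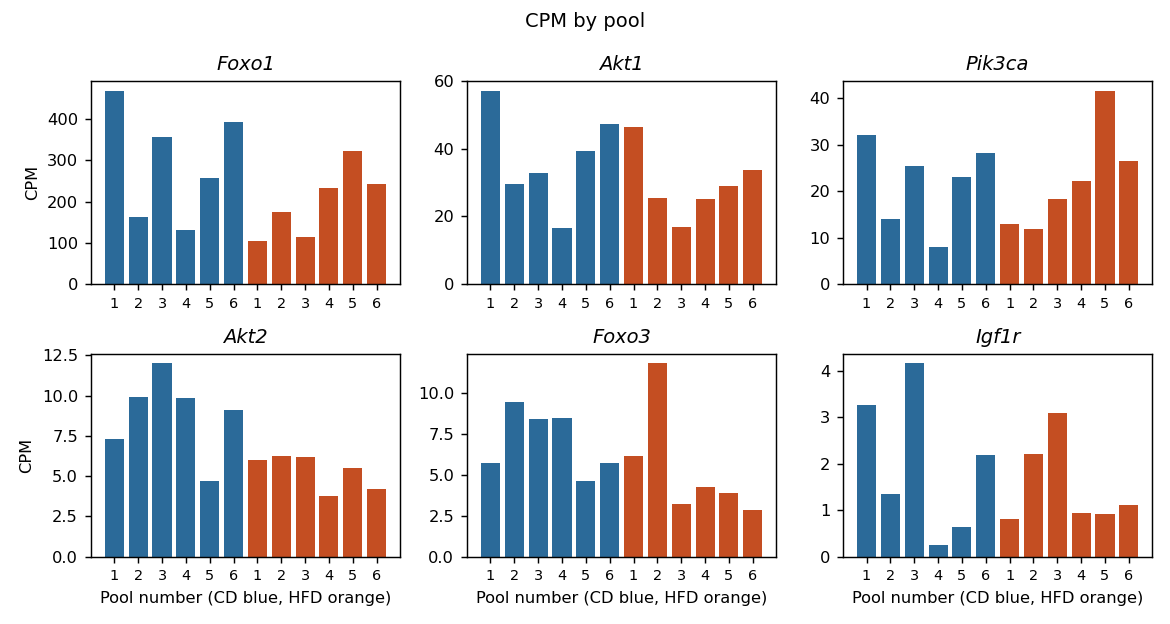
CPM of 6 members in each pool, with CD pools 1 to 6 in blue and HFD pools 1 to 6 in orange, on linear axes from 0. Foxo1, Akt1 and Pik3ca are low in CD pool 4 and high in CD pools 1 and 6, while Akt2 and Foxo3 are not low in CD pool 4.

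The gene outside the 9 whose log2 CPM followed each member most closely over the 12 libraries was found among the tested genes, as a description. It was Daxx for Foxo1 (r = 0.972), Setd2 for Pik3ca (r = 0.970) and Rtn4ip1 for Foxo3 (r = 0.952). For Akt2 it was Slc25a12 (r = 0.907), for Insr Cct4 (r = 0.892), for Akt1 Irak1 (r = 0.887) and for Igf1r Cyfip2 (r = 0.876). All points share the depth and scaling of their library.

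The rest of the pathway was read from 97 further genes in 9 roles, of which 68 passed the filter. None of the 68 was called with edgeR, and 11 had an unadjusted p under 0.05 (9 lower and 2 higher in HFD), where 8.89% of all tested genes were lower and 13.4% higher by that rule. DESeq2 called 4 lower and 1 higher, where it called 2.46% of all genes it tested as lower and 4.96% as higher, and limma-voom called none. In all, 42 of the 68 were below 0 and 26 above, where 48.2% of all tested genes were below 0. Their median log2 fold change was -0.16 against 0.04 over all tested genes, and -0.14 against 0.01 with the length trend removed. Ins1, Foxo4, Pdk4 and G6pc had no read in any library.

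**Figure D4:**
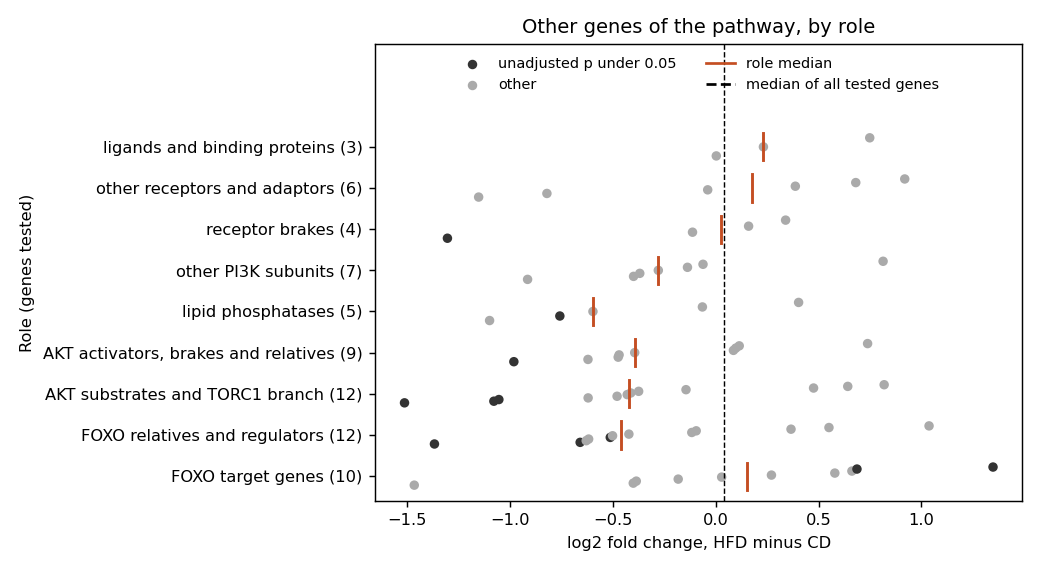
Log2 fold change, HFD minus CD, of the 68 tested genes of the wider pathway by role, with dark points for an unadjusted p under 0.05, an orange bar at the median of each role and a dashed line at the median of all tested genes. The medians of the PI3K, phosphatase, AKT and FOXO regulator roles lie left of the dashed line and those of the ligands, receptors and FOXO targets at or right of it.

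Upstream of the receptors, 3 of 8 ligands and binding proteins were tested, none with an unadjusted p under 0.05. Ins2, an insulin gene, had a log2 fold change of 0.75 and Igf2, a growth factor ligand, of 0.23, both at under 3 CPM on average (edgeR, adjusted p = 0.675 and 0.891). Without HFD replicate 4 the value of Ins2 was 0.13, and that of Igf2 ran from -0.17 to 0.67 with single libraries left out. Kit is the oocyte receptor tyrosine kinase that feeds PI3K during follicle growth. Its mean of 7.19 CPM per kb was the highest of the other receptors and adaptors, narrowly above the next gene at 7.15. It stood at 39.8 ± 15.6 CPM in HFD and 88.4 ± 99.9 in CD, where the median was 53.4 CPM. The difference was -1.15 on the log2 scale (edgeR, adjusted p = 0.228). CD replicate 3, the library with the highest oviduct and stromal marker sums, held 290 CPM of Kit, and without that library the fold change was -0.31. The part of oviduct or stromal cells in its counts was not tested. The adaptor Shc1 had -0.82, or -0.44 without the same library. Among the receptor brakes, the adaptor Grb10 had -1.30, or -0.71 without CD replicate 3, and the phosphatase Ptpn2 was abundant in both diets, at 452 ± 95.8 and 357 ± 96.3 CPM, with 0.34. None of these 4 passed (edgeR, adjusted p from 0.209 to 0.429).

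At the PI3K step, 6 of the 7 tested subunits were below 0, where 48.2% of all tested genes were. Of these 7, 0 had an unadjusted p under 0.05. Pik3r1, the p85-alpha regulatory subunit that stabilises the catalytic subunit, stood at 61.4 ± 15.8 CPM in HFD and 80.9 ± 10.6 in CD, with -0.40 (edgeR, adjusted p = 0.353). Pik3r3, the regulatory subunit with the highest level per kb, had -0.37 (-0.19 without CD replicate 4 and -0.62 without HFD replicate 2), and Pik3c2a of the class II kinases -0.91, or -0.37 without CD replicate 3. The lipid phosphatase Inpp5d had -1.10 (edgeR, adjusted p = 0.507), or -0.016 without CD replicate 3.

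Around AKT, 4 genes with an unadjusted p under 0.05 were lower in HFD and 0 higher, 1 of 9 tested activators, brakes and relatives and 3 of 12 tested substrates and TORC1 genes, where 8.89% of all tested genes were lower and 13.4% higher by that rule. Rictor, the defining subunit of the TORC2 complex that phosphorylates AKT, stood at 93.5 ± 27.9 CPM in HFD and 184 ± 88.8 in CD, with -0.98 ± 0.31 (SE) on the log2 scale (edgeR, adjusted p = 0.105; DESeq2, 0.0497), or -0.70 without CD replicate 3. Mapkap1, another TORC2 subunit, had -0.47 (edgeR, adjusted p = 0.243). Pde3a, the oocyte phosphodiesterase that breaks down cAMP at the resumption of meiosis, ran from 2.65 to 6.14 CPM in HFD and from 4.997 to 33.2 in CD, with -1.51 ± 0.46 (SE) on the log2 scale (edgeR, adjusted p = 0.0996; DESeq2, 0.0238), or -0.98 without CD replicate 3. Gsk3a, a kinase that AKT inhibits, stood at 8.62 ± 2.78 and 17.9 ± 5.56 CPM, with -1.05 ± 0.34 (edgeR, adjusted p = 0.108; DESeq2, 0.0259). Rheb, the GTPase that activates TORC1, had the highest level per kb of its role, and its 0.82, or 0.51 without HFD replicate 6, did not pass (edgeR, adjusted p = 0.314). The 6 HFD libraries lay below the CD mean for Rictor, Pde3a and Gsk3a, and the diets overlapped for each.

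Among FOXO regulators, 9 of 12 tested genes were below 0, where 48.2% of all tested genes were. Skp2, a ubiquitin ligase subunit that targets FOXO1, stood at 16.3 ± 7.97 CPM in HFD and 42.0 ± 15.4 in CD, with -1.37 ± 0.42 (SE) on the log2 scale (edgeR, adjusted p = 0.104; DESeq2, 0.0306). Ywhae, a 14-3-3 protein of the family that binds phosphorylated FOXO, was abundant, at 302 ± 39.9 and 430 ± 77.4 CPM, with -0.51 (edgeR, adjusted p = 0.179). FOXO target genes did not share a direction, with 4 of 10 below 0 and 6 above. Sesn3, a FOXO target that restrains TORC1, ran from 3.78 to 19.8 CPM with a median of 8.50 in HFD, against 3.36 to 4.25 CPM in CD. Of the HFD libraries 5 lay above the CD mean, and its log2 fold change was 1.35 ± 0.41 (edgeR, adjusted p = 0.0997; DESeq2, 0.0243). Over the alternatives the adjusted p of the 5 genes that DESeq2 called reached 0.352 for Rictor and Sesn3, 0.394 for Pde3a, 0.340 for Gsk3a and 0.336 for Skp2. Sod2, the mitochondrial superoxide dismutase, stood at 149 ± 39.3 and 92.9 ± 27.3 CPM, with 0.69 and 6 of 6 HFD libraries above the CD mean (edgeR, adjusted p = 0.159). Txnip, a regulator of glucose uptake with the highest level per kb of its role, had -0.40 (edgeR, adjusted p = 0.574), or -0.13 without CD replicate 2 and -0.70 without HFD replicate 2.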

How the data were processed

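The kits were SMART-Seq v4 for cDNA and Nextera XT for libraries, per the labels' protocols, and do not mark strand. The authors deposited raw read counts by gene symbol. The submitters' processing notes name STAR, HTSeq 1.0.0, DESeq2 1.0.19 and mm10. The STAR version, the annotation and how reads were counted are not stated there. The counter's 5 tally lines were left out. Counts were tested with edgeR 4.0.16 under R 4.3.3 (TMM, default filter on low counts, robust quasi-likelihood test, diet as the only term). Fold changes are HFD minus CD, and intervals use edgeR's degrees of freedom. DESeq2 1.42.0 and voom in limma 3.58.1 were alternatives. Coordinates and lengths came from GENCODE M21 (mm10), which matched 22750 symbols, 95.5% of tested genes having a length. The fit was tested on simulated data. Log2 CPM for correlations used a prior count of 2, with 100000 permutations, and paralogue ratios used counts + 0.5. A ratio of Irs2 to Irs1 was planned and could not be computed.

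The members and lists were chosen with earlier results of these data known. Named were the members, and in each role the genes with the 2 smallest p and the highest level per kb, and the gene most alike to each member. Irs4 and the genes without a read were named after their values were seen. A gene that this rule names is not reported here. Reads carried no molecular identifiers.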

Additional observations from a re-analysis of the deposited data

Results flagged for a closer look

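Foxo3 in HFD replicate 2 lay far from the other HFD libraries, at 11.8 CPM against 2.87 to 6.16 CPM in the other 5, a gap of 0.631 of the range of that diet. It was 1 of 20 groups checked, and chance flags about 1 in 20. Without that library the log2 fold change of Foxo3 was -0.79 in place of -0.39.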

How the results depend on the processing

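No member passed the threshold in any fit that tested it, by edgeR, DESeq2 or limma-voom. The number of genes called, 0 in the edgeR fit reported, was 709 with DESeq2, 35 with limma-voom and 456 where odd counts occurred (2 HFD and 6 CD libraries), and 0 with each single library left out. For genes of the wider pathway it was 0, and 5 with DESeq2. Akt1, Akt2, Foxo1, Foxo3 and Igf1r kept a negative sign in each fit that tested them. Igf1r and Insr were not tested in the fit without both replicates 3, and DESeq2 gave no adjusted p for Insr. Insr was 0.71 in the odd-count libraries. Pik3ca changed sign with total-count scaling (-0.11), without the filter (-0.020) and with single libraries left out (-0.27 to 0.16). Among pathway genes, Ins2 was -0.061 with the length trend removed, Ptpn2 -0.048 in the odd-count libraries, and Igf2 -0.038 with total-count scaling, -1.13 in the odd-count libraries and -0.17 to 0.67 with libraries left out. In the odd-count libraries the ratio differences were -1.39 for Igf1r over Insr, 0.11 for Akt2 over Akt1 and -0.48 for Foxo3 over Foxo1, and the last was -0.036 without both replicates 3 and -0.26 to 0.28 with single libraries left out. The cause of these changes was not tested. Per longest transcript, Akt1 stood at 12.4 and Akt2 at 1.56 CPM per kb, with the order of levels unchanged. Total-count scaling shifted the median of all tested genes by -0.10. Same-numbered pools correlated from -0.45 to 0.55 in their deviations, and 2 of 6 HFD pools were most like the CD pool of their own number, so the numbers were not read as pairs. With the replicate block 0 genes were called, Akt2 was -0.70 and Foxo1 -0.52, and no member's call changed. Depth limits Insr, Irs1 and Irs2 most.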
